A study of Homo sapiens with 4 samples.

Results

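Detoxification enzymes and ABC transporters were examined as all genes of the aldehyde dehydrogenase (ALDH), glutathione S-transferase (GST), aldo-keto reductase (AKR, subfamilies 1 and 7), quinone reductase (NQO) and ATP-binding cassette (ABC) families with a probe on the array. They were picked by gene symbol from the platform annotation, which gave 89 probes of 83 genes out of 17397 named probes of 15240 genes. The cells were H1299, a line from a human non-small cell lung carcinoma, electroporated with a vector in which the promoter of Oct4 or of nestin drives green fluorescent protein (GFP), and then selected with neomycin. RNA was taken from 4 populations after 24 h of culture in DMEM with 5% serum. Oct4/GFP (+) and Nestin/GFP (+) cells had been sorted for high GFP, and Oct4/GFP (−) and Nestin/GFP (−) cells were negative for the same reporter. By the study's methods, transfected lines were also sorted for cells without GFP, while the labels describe the GFP (−) RNA as negative for the vectors themselves. GFP here reports the activity of an introduced promoter and not the protein, and no source used here gives the number of clones behind each line. Each population was labeled with Cy3 and hybridized to 1 Human OneArray, so no difference below has a replicate check or a p-value, and precision is limited by this number.

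These families handle reactive and foreign molecules. Aldehyde dehydrogenases oxidize aldehydes to acids, aldo-keto reductases and quinone reductases reduce carbonyls and quinones, and glutathione S-transferases join electrophiles to glutathione. ABC transporters use ATP to move lipids, conjugates and drugs across membranes, although the ABCE and ABCF proteins have no membrane domain and act in translation. ALDH activity and dye efflux by ABCG2 are widely used to enrich stem-like tumor cells, and several of these genes are targets of the transcription factor NRF2.

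Of the 83 genes, 35 (42.2%) were above background on at least 1 array, against 7737 of all 15240 genes (50.8%), and 8 were above background on all 4 arrays. At a limit of 2 noise SD the number above background somewhere was 49. The share of all genes was not taken at that limit, so 49 cannot be set against the 50.8%. A probe was called above background where its deposited intensity exceeded 3 times the noise SD of its array, the root mean square of the values below 0. These limits were intensities of 15.3 for Oct4/GFP (+), 22.7 for Nestin/GFP (+), 13.9 for Oct4/GFP (−) and 20.3 for Nestin/GFP (−). By family, 8 of 18 ALDH, 5 of 11 GST, 5 of 9 AKR, 0 of 2 NQO and 17 of 43 ABC genes were above background somewhere. The 17 ABC genes include ABCC13, a transcribed pseudogene in RefSeq. Of the member probes 21.3% were above background in Oct4/GFP (+) cells, 31.5% in Nestin/GFP (+) cells, 16.9% in Oct4/GFP (−) cells and 25.8% in Nestin/GFP (−) cells. For all named probes the shares were 33.3% in Oct4/GFP (+) cells, 33.8% in Nestin/GFP (+) cells, 24.2% in Oct4/GFP (−) cells and 36.0% in Nestin/GFP (−) cells, so the member share lay nearest to the overall share on the Nestin/GFP (+) array.

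**Figure D1:**
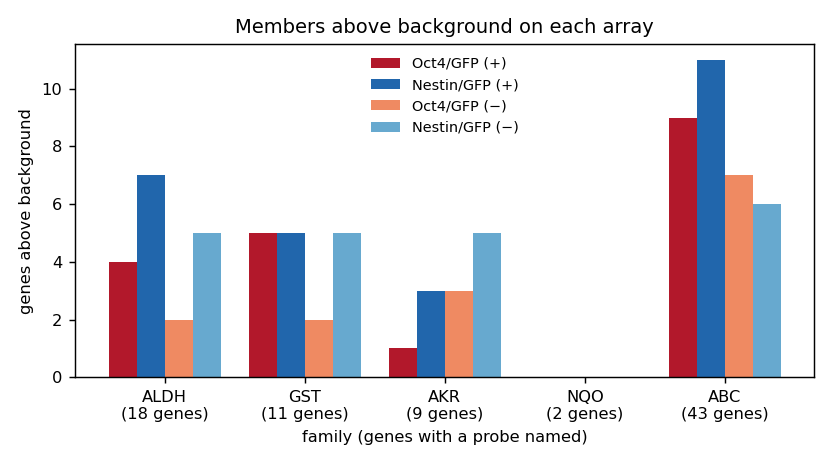
Number of member genes above background (vertical axis) in each family (horizontal axis, with the genes that have a probe named), 1 bar for each array. The bars reach 4 ALDH and 9 ABC genes for Oct4/GFP (+), against 7 and 11 for Nestin/GFP (+), and no NQO gene was above background on any array.

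Of the members named here as marks of stem-like or drug-tolerant cells, ALDH1A1, ABCG2, ABCB1 and NQO1 were among the 48 genes above background on no array, while ALDH2, GSTP1, AKR1C2, AKR1C3 and ABCC1 were above it on at least 1. ALDH1A1, a retinal dehydrogenase and the enzyme most often linked to ALDH activity sorting, had intensities of 1 in Oct4/GFP (+) cells, -8 in Nestin/GFP (+) cells, -1 in Oct4/GFP (−) cells and 11 in Nestin/GFP (−) cells. ABCG2, the transporter behind the side population, had 7 in Oct4/GFP (+) cells, 1 in Nestin/GFP (+) cells, -9 in Oct4/GFP (−) cells and -5 in Nestin/GFP (−) cells. The multidrug transporter ABCB1 had 2 in Oct4/GFP (+) cells, 3 in Nestin/GFP (+) cells, 10 in Oct4/GFP (−) cells and -2 in Nestin/GFP (−) cells. None of these 3 genes passed the limit on any array. The quinone reductase NQO1 had -11 in Oct4/GFP (+) cells, -4 in Nestin/GFP (+) cells, 0 in Oct4/GFP (−) cells and -5 in Nestin/GFP (−) cells. ABCB5, ABCC2, ALDH1A2, ALDH3A1 and AKR1B10 were likewise not above background, with intensities between -6 and 11. Over the 49 probes of these 48 genes the values ran from -14 to 12 in Oct4/GFP (+) cells, -17 to 20 in Nestin/GFP (+) cells, -12 to 12 in Oct4/GFP (−) cells and -14 to 19 in Nestin/GFP (−) cells. With these probes and at this sensitivity their RNA was not detectable, which does not show that it was absent. Low RNA and a probe that does not report its gene cannot be told apart here. No probe is named here for ALDH1A3, AKR1B1 or AKR1C1.

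Before levels were compared, the arrays were quantile normalized, values not above background were set to the smallest normalized value that passed the limit of its array (the floor), and log2 was taken. The floors were 17.25 in Oct4/GFP (+) cells, 18.5 in Nestin/GFP (+) cells, 30.5 in Oct4/GFP (−) cells and 16.25 in Nestin/GFP (−) cells. Where both arrays of a pair exceeded their limits the difference was measured. Where a single one did, only a lower limit of the fold is known, given as at least N-fold and called a bound. A bound was kept only where the level above background exceeded the floor of the other array, and otherwise the gene was not compared. The floor was highest for Oct4/GFP (−), so a gene not above background there needed a higher level elsewhere to be compared. Probes of one gene were averaged. The spread between probes was taken over all named genes, members included, with several probes above background on both arrays of a pair. The log2 difference between Oct4/GFP (+) and Nestin/GFP (+) varied between probes of one gene with an SD of 0.93 (276 genes). The SD was 0.74 between the GFP (−) arrays (203 genes), 0.85 between the Oct4/GFP arrays (180 genes) and 0.54 between the Nestin/GFP arrays (361 genes). A 2-fold difference of a single probe, 1 on this scale, is thus close to the spread between probes in each pair with an Oct4/GFP array. In sorted populations, fewer cells expressing a gene and less RNA per cell cannot be told apart.

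**Figure D2:**
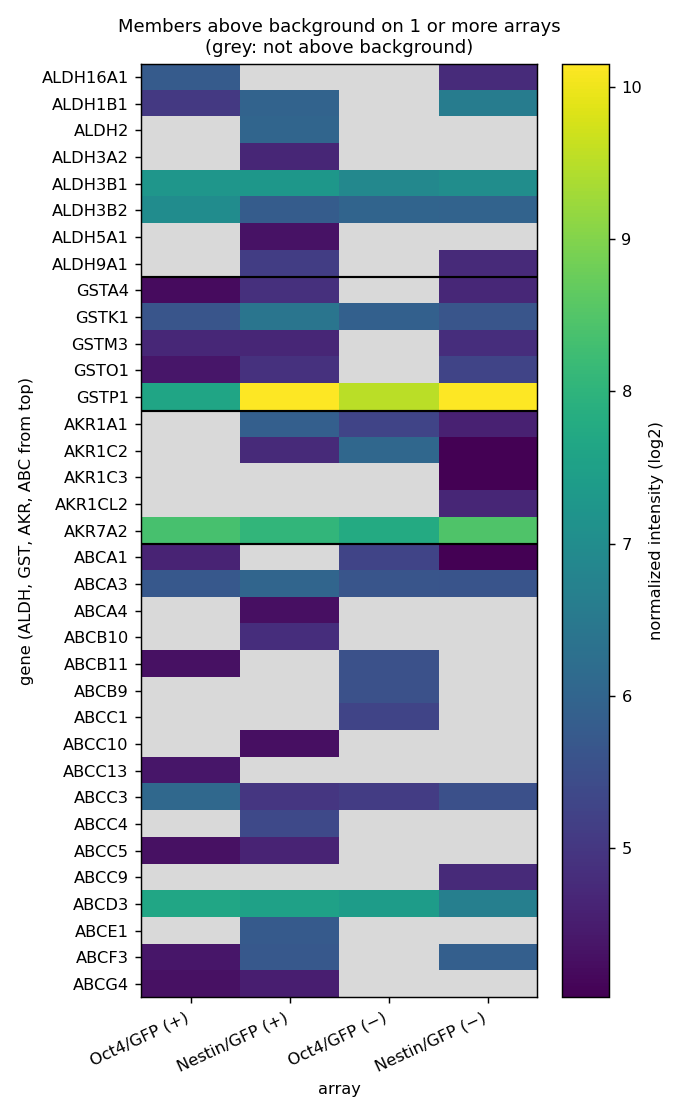
Normalized intensity (log2, color) of the 35 member genes above background on at least 1 array (rows, grouped by family) on the 4 arrays (columns), averaged over the probes of a gene, with grey for not above background. ALDH3B1, ALDH3B2, GSTK1, GSTP1, AKR7A2, ABCA3, ABCC3 and ABCD3 have color in all 4 columns, and ALDH2 and ABCE1 have it for Nestin/GFP (+) alone.

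Members detected on a single array were mostly detected on Nestin/GFP (+). Of 14 such genes, 8 (57.1%) were above background on Nestin/GFP (+) alone, namely ALDH2, ALDH3A2, ALDH5A1, ABCA4, ABCB10, ABCC4, ABCC10 and ABCE1. Among all 2057 genes detected on a single array, 411 (20.0%) were on Nestin/GFP (+) alone. The other 6 members were AKR1C3, AKR1CL2 (now AKR1E2) and ABCC9 on Nestin/GFP (−), ABCB9 and ABCC1 on Oct4/GFP (−) and the pseudogene ABCC13 on Oct4/GFP (+). The pattern rests on the limit: at 2 noise SD, an alternative added after the data were seen, 1 of 15 such members (6.67%) was on Nestin/GFP (+) alone, against 16.8% of all such genes. At 5 noise SD it was 5 of 8 members (62.5%), against 30.1%.

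Of 8 ALDH genes compared between the GFP (+) populations, 2 were more than 2-fold higher and 2 lower in Oct4/GFP (+) cells, beside 13.3% and 16.1% of all genes. ALDH2, the mitochondrial enzyme that clears acetaldehyde, had an intensity of 0 in Oct4/GFP (+) cells, 101 in Nestin/GFP (+) cells, 10 in Oct4/GFP (−) cells and 19 in Nestin/GFP (−) cells. Only the Nestin/GFP (+) value exceeded its limit, by a wide margin at 13.4 noise SD. After normalization ALDH2 was at least 3.78-fold lower in Oct4/GFP (+) cells than in Nestin/GFP (+) cells, past 2-fold under all 9 alternative settings that gave it a value. At 10 noise SD ALDH2 was still above background on Nestin/GFP (+) alone. It gave no bound there, because its level did not exceed the raised Oct4/GFP (+) floor, so the call was lost at that limit. It was at least 4.02-fold higher in Nestin/GFP (+) than in Nestin/GFP (−) cells, a bound that fell under 2-fold at 10 noise SD and with an offset of 50 in place of a limit. Both comparisons use the same Nestin/GFP (+) array. ALDH9A1, which acts in carnitine synthesis, had -3 in Oct4/GFP (+) cells, 51 in Nestin/GFP (+) cells, -2 in Oct4/GFP (−) cells and 35 in Nestin/GFP (−) cells. It was above background in both Nestin/GFP populations and in neither Oct4/GFP population, and was at least 2.03-fold lower in Oct4/GFP (+) cells than in Nestin/GFP (+) cells. The bound fell under 2-fold at 5 noise SD, with an offset of 50 in place of a limit and with arrays centred on probes detected on every array.
ALDH1B1, another mitochondrial aldehyde dehydrogenase, had 27 in Oct4/GFP (+) cells, 97 in Nestin/GFP (+) cells, 11 in Oct4/GFP (−) cells and 124 in Nestin/GFP (−) cells. It was lower with the Oct4 reporter in both GFP states, by 1.90-fold between the GFP (+) arrays and by at least 3.18-fold between the GFP (−) arrays. The GFP (−) bound was -0.59 on the log2 scale at 5 noise SD. ALDH3B2, a relative that oxidizes lipid-derived aldehydes, had 87 in Oct4/GFP (+) cells, 86 in Nestin/GFP (+) cells, 24 in Oct4/GFP (−) cells and 83 in Nestin/GFP (−) cells. It was 2.29-fold higher in Oct4/GFP (+) cells than in Nestin/GFP (+) cells after normalization, while on the values as deposited the log2 difference was 0.02. ALDH16A1, an atypical member of the family, had 42 in Oct4/GFP (+) cells, 18 in Nestin/GFP (+) cells, 7 in Oct4/GFP (−) cells and 36 in Nestin/GFP (−) cells, which made it at least 2.99-fold higher in Oct4/GFP (+) cells than in Nestin/GFP (+) cells. On the values as deposited the log2 bound was 0.87. ALDH3B1 was measured on all 4 arrays and had log2 differences between -0.14 and 0.36 over the 4 comparisons. ALDH3A2 and ALDH5A1, which oxidize fatty aldehydes and succinic semialdehyde, reached 34 and 25 on Nestin/GFP (+) and gave bounds under 2-fold.

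Among the glutathione S-transferases, the calls of GSTP1 turned on a single probe. Its first probe had intensities of 1957 in Oct4/GFP (+) cells, 6369 in Nestin/GFP (+) cells, 766 in Oct4/GFP (−) cells and 2853 in Nestin/GFP (−) cells. Its second probe had 13 in Oct4/GFP (+) cells, 535 in Nestin/GFP (+) cells, 72 in Oct4/GFP (−) cells and 692 in Nestin/GFP (−) cells. The second probe was not above background on Oct4/GFP (+) alone and lay at -4.29 log2 units from the mean of its values elsewhere, while the first probe was far above background on all 4. By the first probe GSTP1 was 1.85-fold lower in Oct4/GFP (+) cells than in Nestin/GFP (+) cells, and by the second at least 17.9-fold lower. Averaged over both probes, with the second at the floor on Oct4/GFP (+), the log2 difference was -2.52, and without the second probe it was -0.89, which is under 2-fold. Between the Oct4/GFP (+) and Oct4/GFP (−) arrays the averaged log2 difference was -1.88, and the first probe gave -0.05. The 2 probes also disagreed where both were bright. Between Nestin/GFP (+) and Nestin/GFP (−) cells the first was 1.83-fold higher and the second 1.80-fold lower. There were 129 probes whose level on Oct4/GFP (+) was over 8-fold away from their mean on the remaining arrays, against 3 on each Nestin/GFP array and 10 on Oct4/GFP (−), and the second GSTP1 probe was the only member probe among them.
GSTK1, a mitochondrial and peroxisomal transferase, had 96 in Oct4/GFP (+) cells, 360 in Nestin/GFP (+) cells, 42 in Oct4/GFP (−) cells and 116 in Nestin/GFP (−) cells at its first probe and 0 in Oct4/GFP (+) cells, 50 in Nestin/GFP (+) cells, 12 in Oct4/GFP (−) cells and 36 in Nestin/GFP (−) cells at its second. Both probes were highest on Nestin/GFP (+). Between the Nestin/GFP arrays the first probe was 2.30-fold higher in GFP (+) cells and the second 1.25-fold higher, which averaged to a log2 difference of 0.76, so GSTK1 passed 2-fold by its brighter probe alone. GSTA4, which conjugates a product of lipid peroxidation, GSTM3 and GSTO1 were above background on every array but Oct4/GFP (−), at intensities of 17 to 51. For GSTM3 this held at 1 of its 2 probes, and the other, at -1 to 10, was above background on no array. The log2 differences of GSTA4, GSTM3 and GSTO1 stayed between -0.66 and 0.16 in the comparisons where they were measured.

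**Figure D3:**
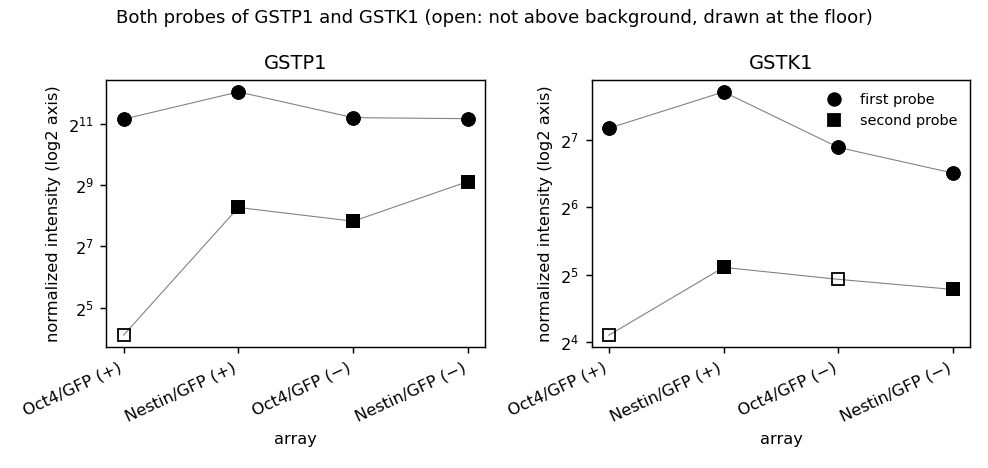
Normalized intensity (vertical axis, log2 scale) of both probes of GSTP1 (left) and GSTK1 (right) on the 4 arrays, with open symbols for values not above background, drawn at the floor of that array, and lines that only join the points of a probe. The second GSTP1 probe is at the floor on Oct4/GFP (+), where the first probe is at 2265.

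Among the aldo-keto reductases, AKR1A1 passed 2-fold between GFP (+) and GFP (−) cells in opposite directions in the 2 lines. AKR1A1, an aldehyde reductase, had intensities of 5 in Oct4/GFP (+) cells, 92 in Nestin/GFP (+) cells, 16 in Oct4/GFP (−) cells and 31 in Nestin/GFP (−) cells. It was at least 3.43-fold lower in Oct4/GFP (+) cells than in Nestin/GFP (+) cells. That bound was -0.93 on the log2 scale at 5 noise SD and -0.99 with the offset of 50. In the Nestin/GFP line it was 2.47-fold higher in GFP (+) than in GFP (−) cells. This fell to a log2 bound of 0.21 at 10 noise SD and to 0.56 with the offset of 50. In the Oct4/GFP line it was at least 2.25-fold lower in GFP (+) than in GFP (−) cells, and that bound rests on an Oct4/GFP (−) value of 3.46 noise SD and fell under 2-fold with loess or with arrays centred on their medians. AKR1C2, a 3-alpha-hydroxysteroid dehydrogenase, had -6 in Oct4/GFP (+) cells, 36 in Nestin/GFP (+) cells, 25 in Oct4/GFP (−) cells and 21 in Nestin/GFP (−) cells. It was 4.12-fold higher in Oct4/GFP (−) cells than in Nestin/GFP (−) cells, or 0.25 on the log2 scale as deposited, and at least 3.88-fold lower in Oct4/GFP (+) than in Oct4/GFP (−) cells, or -0.64 as deposited. The Nestin/GFP (−) value of AKR1C2 was 3.1 noise SD, with its normalized level at the floor. Between the GFP (−) arrays the log2 difference was 1.08 with loess and 0.82 with the offset of 50. The AKR1C genes are close copies of each other, so values of a single member of this group are uncertain. AKR1C3 reached 21 on Nestin/GFP (−) at 1 of its 2 probes and was not above background elsewhere. AKR7A2, which reduces succinic semialdehyde, had 226 in Oct4/GFP (+) cells, 462 in Nestin/GFP (+) cells, 70 in Oct4/GFP (−) cells and 450 in Nestin/GFP (−) cells, and its log2 differences lay between -0.70 and 0.60 over the 4 comparisons.

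In the ABCC subfamily of drug and conjugate exporters, ABCC4 was lower and ABCC3 higher in Oct4/GFP (+) cells relative to Nestin/GFP (+) cells. ABCC4, which exports cyclic nucleotides and nucleotide analogs, had 15 in Oct4/GFP (+) cells, 62 in Nestin/GFP (+) cells, 4 in Oct4/GFP (−) cells and 19 in Nestin/GFP (−) cells. It was at least 2.39-fold lower in Oct4/GFP (+) cells than in Nestin/GFP (+) cells. Set against GFP (−) cells of its own line, its level in Nestin/GFP (+) cells was at least 2.54-fold higher than in Nestin/GFP (−) cells, and both bounds fell under 2-fold at 5 noise SD. ABCC3, an exporter of glucuronide conjugates, had 52 in Oct4/GFP (+) cells, 45 in Nestin/GFP (+) cells, 15 in Oct4/GFP (−) cells and 61 in Nestin/GFP (−) cells. It was 2.12-fold higher in Oct4/GFP (+) cells than in Nestin/GFP (+) cells after normalization and had a log2 difference of 0.21 on the values as deposited. ABCC1, the multidrug resistance protein MRP1, had 9 in Oct4/GFP (+) cells, 15 in Nestin/GFP (+) cells, 16 in Oct4/GFP (−) cells and 2 in Nestin/GFP (−) cells. Only the 16 on Oct4/GFP (−) passed a limit, at 3.46 noise SD, which gave at least 2.38-fold higher in Oct4/GFP (−) cells than in Nestin/GFP (−) cells. ABCC5 was above background on both GFP (+) arrays, at 18 on Oct4/GFP (+) and 33 on Nestin/GFP (+), with a log2 difference of -0.33.
Of the members that act in translation, ABCE1 and ABCF3 were lower in Oct4/GFP (+) cells than in Nestin/GFP (+) cells, and ABCF2 was above background on no array. ABCE1, which recycles ribosomes, had 4 in Oct4/GFP (+) cells, 83 in Nestin/GFP (+) cells, 6 in Oct4/GFP (−) cells and 18 in Nestin/GFP (−) cells, and was at least 3.12-fold lower in Oct4/GFP (+) cells than in Nestin/GFP (+) cells. Between the Nestin/GFP arrays it was at least 3.31-fold higher in GFP (+) cells, a bound that fell to 0.07 on the log2 scale at 10 noise SD. ABCF3 had 19 in Oct4/GFP (+) cells, 81 in Nestin/GFP (+) cells, 9 in Oct4/GFP (−) cells and 78 in Nestin/GFP (−) cells, and was 2.51-fold lower in Oct4/GFP (+) cells than in Nestin/GFP (+) cells. At 5 noise SD both fell under 2-fold between the GFP (+) arrays (log2 differences of -0.79 for ABCE1 and -0.77 for ABCF3), as they did with the offset of 50 (-0.96 and -0.53). ABCF3 was above background in both Nestin/GFP populations, and ABCE1 in the GFP (+) one alone.
The lipid transporters ABCD3 and ABCA3 were measured on all 4 arrays and stayed under 2-fold in every comparison. ABCD3, a peroxisomal fatty acid transporter, had 135 in Oct4/GFP (+) cells, 320 in Nestin/GFP (+) cells, 57 in Oct4/GFP (−) cells and 130 in Nestin/GFP (−) cells, with log2 differences between 0.11 and 0.86. ABCA3, which loads surfactant lipids in alveolar type II cells, had 40 in Oct4/GFP (+) cells, 101 in Nestin/GFP (+) cells, 19 in Oct4/GFP (−) cells and 65 in Nestin/GFP (−) cells and log2 differences between -0.31 and 0.41. ABCA1, an exporter of cholesterol, had 22 in Oct4/GFP (+) cells, 11 in Nestin/GFP (+) cells, 16 in Oct4/GFP (−) cells and 21 in Nestin/GFP (−) cells, and was 2.38-fold higher in Oct4/GFP (−) cells than in Nestin/GFP (−) cells after normalization, while on the values as deposited the log2 difference was -0.39. Its Nestin/GFP (−) value was 3.1 noise SD, with its normalized level at the floor, and with loess the log2 difference was 0.10. ABCB9, a lysosomal peptide transporter, and ABCB11, the bile salt export pump, each had 18 on Oct4/GFP (−), or 3.9 noise SD, and were each at least 2.85-fold higher there than in Nestin/GFP (−) cells. With loess both bounds were 0.36 on the log2 scale and that of ABCC1 was 0.10, and with arrays centred on their medians they were 0.95 and 0.78. ABCB11 also had 18 on Oct4/GFP (+), so its 2.34-fold lower level there than on Oct4/GFP (−) was 0.00 on the log2 scale as deposited.

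Promoters of members described above are shown to set their sequence beside these levels. They are the 250 bases before the gene start in RefSeq (GRCh38.p14), with capitals for TGACNNNGC, the core of the antioxidant response element bound by NRF2, on either strand. ABCC4 (chr13:95301452-95301701, minus strand), ABCE1 (chr4:145098061-145098310, plus strand) and AKR1A1 (chr1:45550576-45550825, plus strand) were chosen because their genes were highest on Nestin/GFP (+) as deposited. GSTP1 (chr11:67583562-67583811, plus strand) and AKR7A2 (chr1:19312147-19312396, minus strand) were chosen because they were above background on all 4 arrays and hold the core, as does ABCA3, which is not shown.
ABCC4: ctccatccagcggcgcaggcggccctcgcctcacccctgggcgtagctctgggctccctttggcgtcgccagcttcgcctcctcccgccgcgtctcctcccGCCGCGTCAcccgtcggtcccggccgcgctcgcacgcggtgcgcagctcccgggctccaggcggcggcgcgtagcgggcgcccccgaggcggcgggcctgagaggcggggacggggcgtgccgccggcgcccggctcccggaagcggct
ABCE1: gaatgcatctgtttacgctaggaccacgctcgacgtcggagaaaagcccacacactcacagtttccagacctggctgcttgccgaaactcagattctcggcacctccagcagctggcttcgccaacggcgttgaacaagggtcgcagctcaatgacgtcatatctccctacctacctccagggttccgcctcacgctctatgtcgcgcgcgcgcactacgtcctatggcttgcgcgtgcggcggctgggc
AKR1A1: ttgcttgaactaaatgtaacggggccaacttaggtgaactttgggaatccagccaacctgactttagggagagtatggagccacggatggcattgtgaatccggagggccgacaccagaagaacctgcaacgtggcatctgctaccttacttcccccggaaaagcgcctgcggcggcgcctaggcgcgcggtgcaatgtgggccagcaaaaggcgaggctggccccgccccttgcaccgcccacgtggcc
GSTP1: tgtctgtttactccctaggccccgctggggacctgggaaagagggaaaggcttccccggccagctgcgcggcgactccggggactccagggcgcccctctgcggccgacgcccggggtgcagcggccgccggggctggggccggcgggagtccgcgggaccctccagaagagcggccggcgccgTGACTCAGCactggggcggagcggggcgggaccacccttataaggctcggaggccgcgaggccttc
AKR7A2: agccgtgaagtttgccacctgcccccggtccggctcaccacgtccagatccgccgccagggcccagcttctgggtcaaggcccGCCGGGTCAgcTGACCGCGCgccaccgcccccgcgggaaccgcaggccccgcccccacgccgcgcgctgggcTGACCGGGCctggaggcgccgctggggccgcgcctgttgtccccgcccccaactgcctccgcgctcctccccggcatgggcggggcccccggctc
GSTP1 and ABCC4 hold the core once each, AKR7A2 holds it 3 times, and ABCE1 and AKR1A1 do not hold it in this window. Of 35116 promoters of this length 10.9% hold it, and of the 65 members with an entry 10 do (15.4%). A match is a description of the letters and not a binding site. CG dinucleotides numbered 28 in the GSTP1 window, 42 in that of ABCC4, 31 in AKR7A2, 24 in ABCE1 and 17 in AKR1A1. The median was 11 over all promoters, 15 over the 65 members and 29.5 over the 6 of them above background on all 4 arrays.

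**Figure D4:**
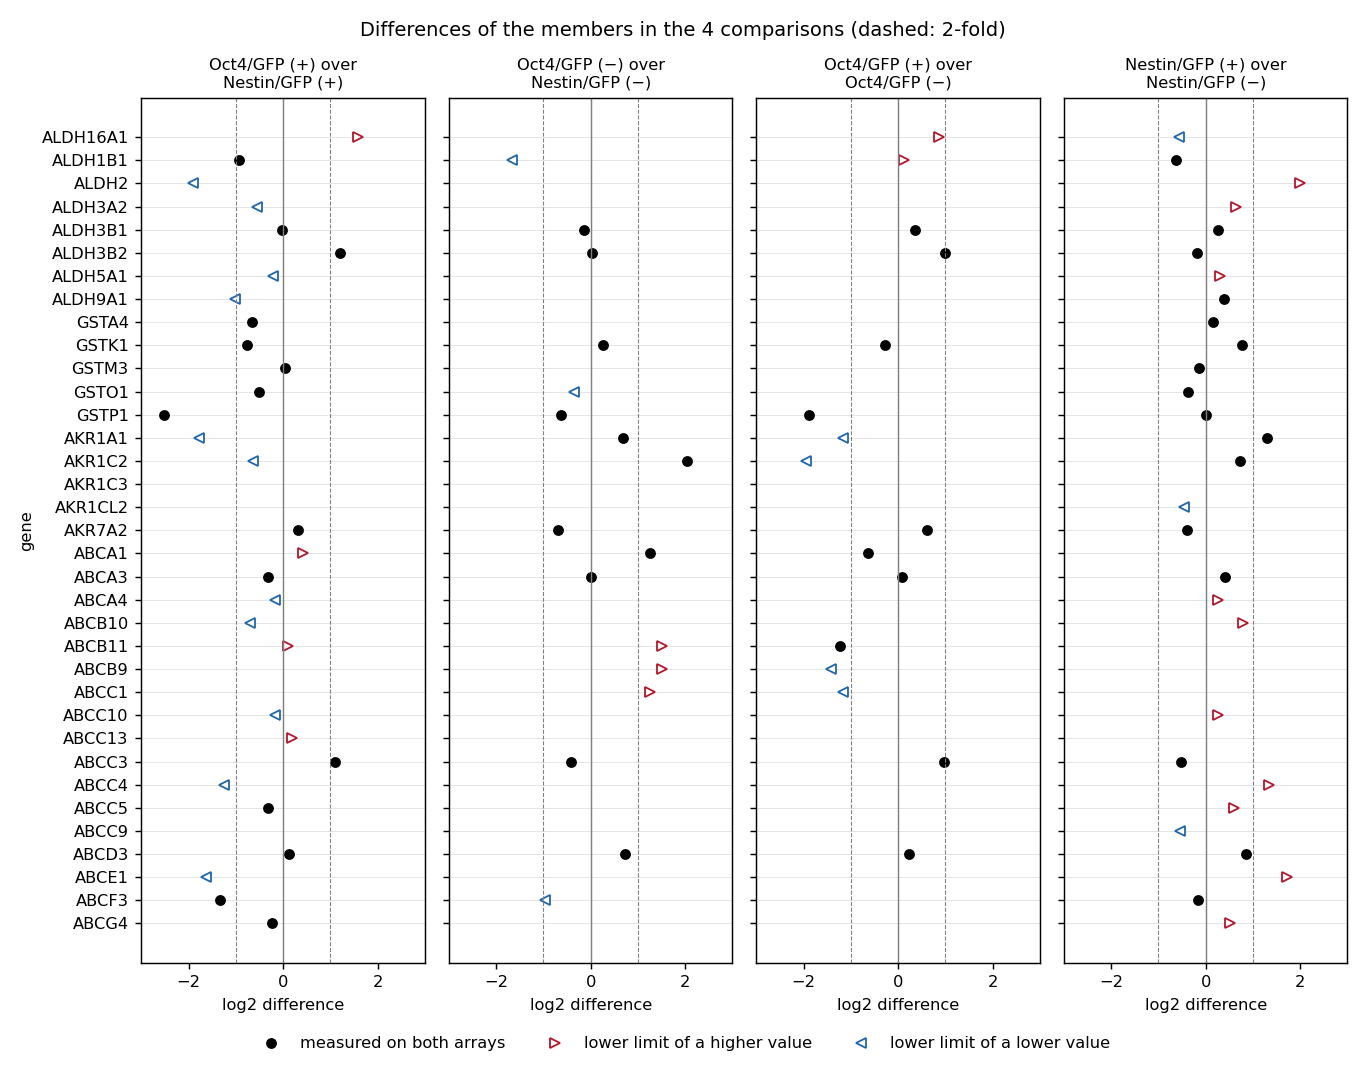
Log2 differences (horizontal axis) of the 35 detected members (vertical axis) in the 4 comparisons, with dots for genes measured on both arrays and open triangles for bounds that point away from 0. ALDH2, AKR1A1, ABCC4 and ABCE1 lie past the dashed 2-fold line on the left in the first panel and on the right in the last, which share the Nestin/GFP (+) array.

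Between the GFP (+) populations, 3 members were more than 2-fold higher and 7 lower in Oct4/GFP (+) cells than in Nestin/GFP (+) cells, of 30 compared. The higher ones were ALDH3B2, ALDH16A1 and ABCC3, and the lower ones ALDH2, ALDH9A1, GSTP1, AKR1A1, ABCC4, ABCE1 and ABCF3. Of all genes compared, 13.3% were higher and 16.1% lower. Among the 15 members measured on both arrays, 4 passed 2-fold, 2 in each direction (ALDH3B2 and ABCC3 higher, ABCF3 and, only through its second probe at the floor, GSTP1 lower), beside 23.9% of all genes measured on both, and the median log2 difference was -0.31, against 0.06 for all genes. With the bounds the members' median was -0.32. With each array centred on its median, 0 members were higher and 18 lower of 27, while 2.66% of all genes were higher and 47.0% lower and the median of all genes moved to -0.96. The values as deposited gave the same counts by construction, since both arrays have a median of 7 and centring left this pair unchanged. Relative to the median of all genes, the members' median lay at -0.37 after quantile normalization and at -0.32 with loess. It was -0.28 with array medians, as deposited and with common probes. These scalings shift each array by a constant, so they give the same value by construction. With the offset of 50 in place of a limit it was -0.07, over all 83 members.
Between the GFP (−) populations, 5 members were more than 2-fold higher and 1 lower in Oct4/GFP (−) cells than in Nestin/GFP (−) cells, of 17 compared. ABCA1, ABCB9, ABCB11, ABCC1 and AKR1C2 were higher and ALDH1B1 lower. Not compared were ALDH9A1, ALDH16A1, GSTA4, GSTM3, ABCC9, AKR1C3 and AKR1CL2. Their Nestin/GFP (−) levels passed the limit but lay under the Oct4/GFP (−) floor of 30.5. The Nestin/GFP (−) floor was 16.25, so higher levels in Oct4/GFP (−) cells were counted more easily than lower ones. The counts in the 2 directions thus cannot be set against each other. Of all genes compared, 21.2% were higher and 12.4% lower. The 5 higher members had Oct4/GFP (−) intensities of 16 to 25, and on the values as deposited 0 members were higher and 17 lower of 21, beside 0.218% and 70.3% of all genes. With loess 1 member was higher and 2 lower of 24, beside 7.25% and 10.4% of all genes. Among the 11 members measured on both arrays 2 passed 2-fold (AKR1C2 and ABCA1), beside 26.3% of all genes, and the 11 had a median log2 difference of 0.02, against 0.16 for all genes.
Between the Oct4/GFP populations, 0 members were more than 2-fold higher and 6 lower in GFP (+) than in GFP (−) cells, of 16 compared, beside 10.6% and 19.5% of all genes. These were GSTP1, AKR1A1, AKR1C2, ABCB9, ABCB11 and ABCC1. Not compared were ABCC5, ABCC13, ABCF3, ABCG4, GSTA4, GSTM3 and GSTO1. Their Oct4/GFP (+) levels passed the limit but lay under the Oct4/GFP (−) floor of 30.5. None was left out in the other direction, so the counts in the 2 directions cannot be set against each other. As deposited, 7 members were higher and 0 lower of 21, beside 40.6% and 2.38% of all genes, so the direction of these counts depends on the scaling. Among the 10 members measured on both arrays 2 passed 2-fold (ABCB11 and, only through its second probe at the floor, GSTP1), beside 21.2% of all genes, and the 10 had a median log2 difference of 0.16, against -0.04 for all genes.
Between the Nestin/GFP populations, 4 members were higher and 0 lower in GFP (+) than in GFP (−) cells, of 29 compared, beside 7.4% and 5.81% of all genes. ALDH2, AKR1A1, ABCC4 and ABCE1 were the 4. The number was 11 with arrays centred on their medians and 6 as deposited, with 0 lower in both, while 28.5% and 13.4% of all genes were higher under these scalings. Among the 16 members measured on both arrays 1 passed 2-fold (AKR1A1), beside 10.8% of all genes, and the 16 had a median log2 difference of 0.09, against 0.04 for all genes.
The reporter difference could be taken in GFP (+) and in GFP (−) cells, which share no array. It had the same sign in both for 4 of the 8 members above background on all 4 arrays, beside 60.5% of 2853 such genes. The GFP difference had the same sign in the Oct4/GFP and Nestin/GFP lines for 3 of the 8, beside 46.5%.

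**Figure D5:**
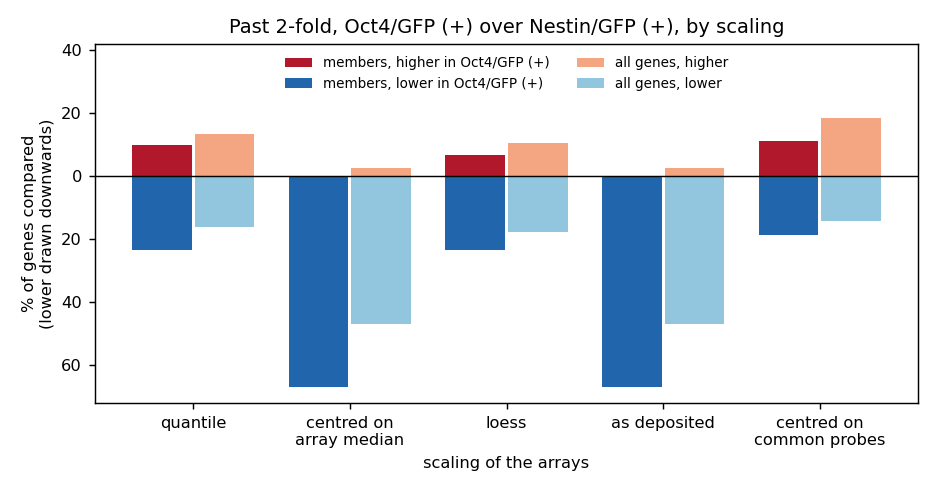
Share of the genes compared (vertical axis, %, lower genes drawn downwards) that passed 2-fold between Oct4/GFP (+) and Nestin/GFP (+), for the members and for all genes, under 5 scalings of the arrays (horizontal axis). The members' lower share is 23.3% after quantile normalization and 66.7% when each array is centred on its median, and all genes move with it.

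Other genes of the pathway were given by lists. Of 31 NRF2 and glutathione genes with a probe, 23 were above background somewhere, and between the GFP (+) arrays 3 were more than 2-fold higher and 3 lower of 23 compared, with a median log2 difference of 0.10 over the 19 measured. For these lists too, 13.3% of all genes compared were higher and 16.1% lower. NFE2L2, which encodes NRF2, had intensities of 96 in Oct4/GFP (+) cells, 844 in Nestin/GFP (+) cells, 84 in Oct4/GFP (−) cells and 539 in Nestin/GFP (−) cells, and was 3.37-fold lower in Oct4/GFP (+) cells than in Nestin/GFP (+) cells. The peroxiredoxin PRDX6 was 2.37-fold lower, and MGST2, a microsomal transferase, and PGD, a pentose phosphate enzyme, were 2.75-fold and 2.89-fold higher. After normalization, genes of one list thus moved in both directions. As deposited, MGST2 had 63 in Oct4/GFP (+) and 42 in Nestin/GFP (+) cells, and PGD had 350 and 297, both less than 2-fold apart. Of 32 cytochrome P450 and conjugation genes with a probe, 13 could be compared, 2 higher and 2 lower, and the 4 largest measured differences, of CYP51A1, ARNT, CYP2J2 and CYP1A2, stayed under 2-fold. Of 15 other drug uptake and efflux genes with a probe, 7 could be compared, 1 higher and 2 lower. SLC29A1, a nucleoside transporter that takes up gemcitabine, had 23 in Oct4/GFP (+) cells, 639 in Nestin/GFP (+) cells, 71 in Oct4/GFP (−) cells and 489 in Nestin/GFP (−) cells at the 1 of its probes that passed the limit, and was 14.1-fold lower in Oct4/GFP (+) cells than in Nestin/GFP (+) cells. That probe too was among the 129 that stood apart on Oct4/GFP (+), at -3.59 log2 units from its mean on the other arrays. SLC22A3, SLC22A5 and MVP, the others measured on both arrays, stayed under 2-fold.

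Markers of the line and the reporters were limited on these arrays. The epithelial markers KRT7, KRT19 and CDH1 were above background on no array, and vimentin (VIM), a mesenchymal filament protein, was on all 4, at 267 in Oct4/GFP (+) cells, 1518 in Nestin/GFP (+) cells, 140 in Oct4/GFP (−) cells and 772 in Nestin/GFP (−) cells. VIM was 2.31-fold lower in Oct4/GFP (+) cells than in Nestin/GFP (+) cells. Of 3 immune markers with a probe, 1 passed the limit on some array (CD14), as did 3 of 5 fibroblast markers (COL1A1, DCN and LUM) and 1 of 4 endothelial markers (PECAM1). Summed over a list, intensities were 10 to 33 for immune cells, 34 to 71 for fibroblasts and 5 to 32 for endothelium over the 4 arrays. NES, which encodes nestin, was above background on no array, with 5 in Oct4/GFP (+) cells, -4 in Nestin/GFP (+) cells, 2 in Oct4/GFP (−) cells and 20 in Nestin/GFP (−) cells, and no probe is named here for POU5F1, which encodes Oct4, so the arrays give no check of the labels by the reporters' own genes. The part of these levels in the results above was not tested.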

How the data were processed

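RNA of the 4 H1299 populations was hybridized by the authors to Human OneArray slides with Cy3 and read on a GenePix scanner. The deposited table holds 1 intensity per probe and array, a linear scale in whole numbers with background already removed, as values below 0 show. Extraction software, scaling and filters are not stated. No build is named for the array. Median intensities were 4 to 9. Values were quantile normalized over the 4 arrays after probes above 3 noise SD had been marked, raised to the floor and log2 transformed, and a gene was the mean of its probes that passed the limit somewhere. Symbols came from the platform annotation, and 81 of the 83 are current in RefSeq and 2 match a synonym. Genes were counted past 2-fold, and no test was run with 1 array per population. Named members were those past 2-fold in any comparison, known marks of stem-like or drug-tolerant cells, and those with several probes above background, and other members named were chosen after their values were seen. Of other lists, up to 4 genes were named by the largest measured difference between GFP (+) arrays. The members and lists were chosen with earlier results of these data known. Alternatives were other scalings (array medians, loess with a span of 0.3, none, common probes), background limits set at 2, 5 or 10 times the noise SD, no limit but an offset of 50, the brightest probe, probes in place of genes, measured genes only, leaving out probes over 8-fold apart on 1 array, and 1.5-fold and 4-fold thresholds. The steps were run on simulated arrays with known 4-fold and 8-fold changes in brighter genes with a single probe. Calls near 2-fold or near the floor were not checked in this way. Scripts ran in Python 3.11.15 with matplotlib 3.10.9 for figures, statsmodels 0.14.6 for loess and pandas 2.3.3, numpy 2.4.6 and scipy 1.17.1 otherwise.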

Additional observations from a re-analysis of the deposited data

Results flagged for a closer look

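AKR1A1 was singled out because its GFP difference passed 2-fold in opposite directions in the 2 reporter lines. GFP (+) minus GFP (−) was -1.17 on the log2 scale in the Oct4/GFP line, a bound, and 1.30 in the Nestin/GFP line, where it was measured. The difference between the lines was not tested, since each population has 1 array. The Oct4/GFP value fell under 2-fold with arrays centred on their medians (-0.81), with loess (-0.17) and with the offset of 50 (-0.69). The Nestin/GFP value fell under 2-fold at 10 noise SD (a bound of 0.21) and with the offset of 50 (0.56).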

How the results depend on the processing

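The number of members past 2-fold moved with the scaling, the background limit and the threshold, and their median log2 difference mostly with the scaling. With arrays centred on their medians the numbers were 18 for Oct4/GFP (+) over Nestin/GFP (+) (median -1.23), 3 for Oct4/GFP (+) over Oct4/GFP (−) and 11 for Nestin/GFP (+) over Nestin/GFP (−) (median 0.68), and the median for Oct4/GFP (−) over Nestin/GFP (−) was -0.60. In the Oct4/GFP pair the 3 were of 16 compared, beside 11.5% of all genes higher and 11.4% lower. As deposited, the GFP (+) pair gave the same 18 (median -1.23), since its 2 arrays have equal medians. The GFP (−) pair gave 17 (median -1.77) and the Oct4/GFP pair a median of 1.16. ABCA1 reversed to -0.39 in the GFP (−) pair and ABCB11 had no difference (0.00) in the Oct4/GFP pair. Loess gave 3 in the GFP (−) pair and 2 in the Oct4/GFP pair. In the Oct4/GFP pair the 2 were of 23 compared, beside 5.19% of all genes higher and 8.38% lower. The next numbers are in the order GFP (+) pair, GFP (−) pair, Oct4/GFP pair and Nestin/GFP pair. At 10 noise SD they were 2 of 7, 0 of 3, 0 of 5 and 1 of 12 compared. With the offset of 50 they were 2, 1, 3 and 0 of 83, where 0.328% to 1.9% of all genes were higher and 0.499% to 2.5% lower. Among genes measured on both arrays they were 4, 2, 2 and 1, beside 23.9%, 26.3%, 21.2% and 10.8% of all genes. At 4-fold they were 1, 1, 0 and 1. At 5 noise SD the first 3 pairs gave 4 of 16, 1 of 8 and 2 of 8. At 1.5-fold the last 3 gave 11 each, and at 2 noise SD the Nestin/GFP pair gave 8 of 36. Shares of all genes were not taken at these other limits and thresholds, so the counts there cannot be set against all genes. At 10 noise SD the median of the GFP (−) pair was -0.63. Members above background on some array numbered 49 at 2, 22 at 5 and 13 at 10 noise SD, and the shares of all genes at these limits were not taken. Except where a value came from fewer genes passing a stricter limit or threshold, the cause was not tested.

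The other 68 values of this kind stayed within 1.5 times the count or 0.585 of the median. Counting each probe on its own gives no value for a gene. No paired analysis was possible because each population has 1 array. Median intensities of 4 to 9 lie under the limits of 13.9 to 22.7, so low levels could not be measured.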
